A study of Mus musculus with 4 samples.

Results

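The comparison described here is between 2 cultures of mouse peritoneal macrophages that both received 10 µM CH223191, an antagonist of the aryl hydrocarbon receptor (AHR). The medium of 1 culture contained 30% 4T1-CM (culture medium taken from 4T1 cells, a mammary carcinoma line of the mouse), and that of the other contained 0%. The members are the genes with at least 10 reads in either of these 2 libraries, which are 13281 of the 54532 genes in the deposited table, 11696 of them protein-coding. A further pair of cultures received DMSO, the vehicle, in place of the antagonist, again with 30% and with 0% 4T1-CM, and is used as the reference response. All 4 cultures are labelled as wild-type macrophages from the peritoneal fluid. The methods of the study describe peritoneal macrophages from adult BALB/c mice that had been elicited with thioglycollate broth, 4T1-CM mixed with RPMI complete medium, and addition of the compound ahead of the conditioned medium. The length of this exposure is not given in the sources used here. There is a single library per condition, and how much replicate cultures vary is therefore not known. All ratios below compare these libraries, with no p-value, and the 95% intervals (exact Clopper-Pearson intervals of the split of reads) cover counting error only.

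Macrophages read tumour-derived colony-stimulating factors, cytokines, lipids and danger signals through surface receptors that feed into STAT, NF-kB, MAP kinase and hypoxia pathways. AHR is a ligand-activated transcription factor which, after binding a ligand, enters the nucleus, pairs with ARNT and binds xenobiotic response elements, and CH223191 competes with its ligands. A comparison made with the antagonist present in both cultures shows which genes differ with conditioned medium in its presence. How far AHR was blocked in these cultures was not tested.

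The 2 libraries held 16129075 (normal medium) and 16388246 (4T1-CM) counted reads. The macrophage label matched the markers in both. All 11 markers were kept, from *Lyz2* (lysozyme) with 241493 reads without and 577870 with 4T1-CM to *Fcgr1*, the high-affinity Fc receptor, with 351 and 1278. 5 of the 11 were at least 2-fold higher with 4T1-CM and 0 were lower, and their summed level was 19433 CPM (counts scaled to library size) in normal medium and 44650 CPM in 4T1-CM. Resident peritoneal macrophage markers were low, with *Gata6* at 20 and 24 reads and *Timd4* at 0 and 1. No T or NK cell, mast cell or mesothelial cell marker was kept, and 7 of 8 T and NK cell markers were at 0 in both libraries. The neutrophil markers *Ly6g*, *S100a9* and *Retnlg* and the monocyte marker *Ly6c2* were at 0 in both. Markers of several other cell types moved with the medium. Higher were 5 of 6 kept fibroblast markers, with a summed level over the list of 31.0 CPM in normal medium and 134 CPM in 4T1-CM, and 2 of 3 kept neutrophil markers (74.6 and 181 CPM), *Mmp8* and *S100a8*. Higher were also 2 of 3 kept monocyte markers (5.28 and 672 CPM, *Hp* and *F13a1*), 2 of 3 dendritic cell markers (1.13 and 3.20 CPM), 2 of 3 endothelial markers (5.72 and 12.4 CPM), 2 of 8 resident peritoneal macrophage markers (17.9 and 37.0 CPM) and the 1 epithelial tumour marker kept, *Cdh1*, with 7 and 20 reads. Of all kept genes, 11.5% were higher and 7.71% lower. With at least 10 reads in both libraries, 5 fibroblast, 2 neutrophil and 2 monocyte markers were higher. The same rule left 1 endothelial and 1 resident peritoneal macrophage marker higher, and 0 dendritic cell or epithelial tumour markers. Of the 7 monocyte markers only 3 were kept, and *Hp* alone had 2.33 and 660 CPM. Lower was *Ighm*, the only B cell marker kept, with 540 and 67 reads. The eosinophil marker *Siglecf* was also lower, with 221 and 88 reads, while *Prg2*, *Epx* and *Ear6* had 0. The part of such cells in the results below was not tested, and in bulk RNA fewer cells of a type cannot be told apart from less RNA per cell.

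Under CH223191, 4T1-CM went with a wide range of differences. At least 2-fold higher were 1529 genes (11.5% of those kept) and at least 2-fold lower were 1024 (7.71%), while the median log2 ratio over all kept genes was 0.01. The tail of higher genes was the longer, with 585 genes at least 4-fold higher against 202 lower, 143 against 19 at 16-fold, and 67 against 5 at 32-fold. The counting interval lay wholly beyond 2-fold for 701 higher and 417 lower genes. The filter itself favours differences among rare transcripts, since a gene can be kept through the library in which it is high. With at least 10 reads required in both libraries, 12055 genes were left, of which 869 were higher and 739 lower. At the edge of the filter, 185 genes had exactly 10 reads in the deeper of their 2 libraries and 219 had exactly 9.

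**Figure D1:**
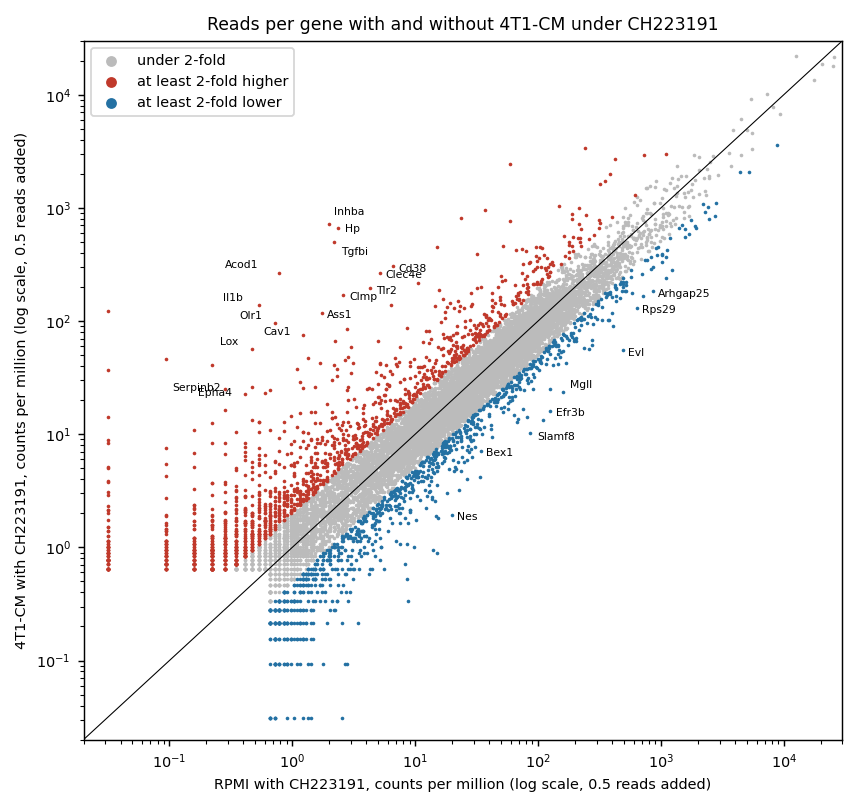
Level of each of the 13281 kept genes in normal medium (x axis) and in 4T1-CM (y axis), both with CH223191, in CPM on log axes after adding 0.5 reads. *Fth1* and *Lyz2*, at 36353 and 35572 CPM in 4T1-CM, lie beyond the upper axis limit and are not drawn. Red points are at least 2-fold higher and blue points at least 2-fold lower with 4T1-CM, the line marks equal levels, and each point compares 1 library with 1 library. Genes with high ratios, such as *Inhba*, *Hp* and *Tgfbi*, lie at 1.95, 2.33 and 2.14 CPM in normal medium, and at 715, 660 and 497 CPM in 4T1-CM.

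The genes with the highest ratios were almost silent in normal medium and abundant in 4T1-CM. *Inhba*, which encodes the subunit of activin A, had 31 reads without and 11616 with 4T1-CM, a 361-fold difference. *Acod1*, the enzyme that makes itaconate, had 12 and 4309 reads, 338-fold. *Hp*, the haemoglobin-binding haptoglobin, had 37 and 10714 reads, 280-fold. The same 3 genes were also near-silent in normal medium with DMSO, at 22, 7 and 29 reads. *Il1b*, encoding interleukin-1 beta, had 8 and 2252 reads, 259-fold, and *Tgfbi*, a secreted matrix protein, had 34 and 8072 reads, 229-fold. *Olr1* (the oxidised lipoprotein receptor LOX-1) had 11 and 1567 reads and *Lox* (a collagen cross-linking oxidase) had 7 and 921. The remaining 8 of the 15 highest genes ran from *Ass1*, which makes argininosuccinate for arginine synthesis, at 68.7-fold (27 and 1928 reads) through *Clmp*, *Cav1*, *Serpinb2*, *Epha4* and *Clec4e* to *Cd38*, an NAD-consuming ectoenzyme, at 45.9-fold and *Tlr2*, the lipoprotein receptor, at 45.0-fold. For *Ass1*, 38.6% of its 50-base words also occur in transcripts of other genes.

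Some transcripts had no reads in the normal medium library and so have only a lower bound. *Fpr2*, a formyl peptide receptor, had 0 reads without and 1987 with 4T1-CM, at least 648-fold higher when the zero is set to a floor of 3 reads. *Fpr1*, its relative, had 0 and 600 reads, at least 196-fold higher. *Lcn2*, the siderophore-binding lipocalin-2, had 0 and 232 reads, at least 75.7-fold higher. The DMSO pair had counts of the same order, with 2 and 2588 reads for *Fpr2*, 0 and 903 for *Fpr1* and 0 and 326 for *Lcn2*. *Fpr2* shares 31.5% of its 50-base words with another gene, and *Fpr1* 0.078%. The non-classical class I gene *H2-M2* had 1 and 753 reads.

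The 15 lowest ratios under the same rule were smaller in size than the 15 highest. The rule itself leaves out lower genes that were weakly expressed in normal medium. Over all kept genes the lowest log2 ratio was −6.37, and 50 genes were at least 8-fold lower. *Nes*, encoding the intermediate filament nestin, had 316 reads without and 31 with 4T1-CM, 10.3-fold lower. *Evl*, a regulator of actin filaments, had 7804 and 893 reads, 8.92-fold lower, and *Slamf8*, a SLAM family receptor of myeloid cells, had 1367 and 167, 8.34-fold lower. *Cdkn1c*, which encodes the cyclin-dependent kinase inhibitor p57, had 1729 and 216 reads, 8.16-fold lower. Lipid and xenobiotic enzymes were also in the group of 15: *Mgll*, monoglyceride lipase, had 2529 and 386 reads, 6.69-fold lower, and *Ephx1*, microsomal epoxide hydrolase, had 1292 and 231 reads, 5.70-fold lower. The signalling genes *Efr3b*, *Rasgrp3*, *Matk* and *Arhgap25* were 7.80-, 7.05-, 4.91- and 4.68-fold lower. *Tnfsf13*, the ligand APRIL, had 290 and 49 reads, a log2 ratio of −2.58, but 57.3% of its 50-base words are shared with an overlapping gene. *Rps29* and *Atp5k*, also among the 15, are short genes and are taken up with the other short genes below.

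**Figure D2:**
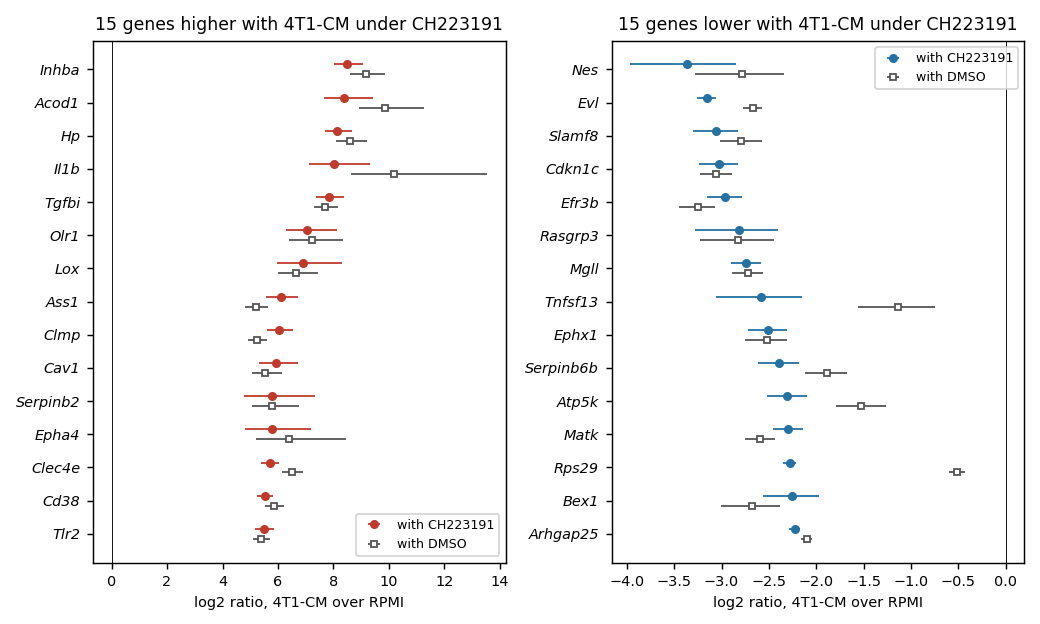
Log2 ratio of 4T1-CM over normal medium for the 15 genes with the highest (left) and the 15 with the lowest ratio (right) under CH223191, as filled points, with the same genes in the DMSO pair as open squares. Bars are 95% counting intervals with 1 library per condition, and the genes were chosen by the filled values. All 30 genes have the same direction in the DMSO pair.

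Promoter sequences (RefSeq, GRCm38.p6, from 250 bases before to 50 after the start) were matched for 9651 of the 13281 kept genes, and 7 short motifs were searched on both strands. For 4490 of the 9651 the RefSeq start lay within 10 bases of the start of the deposited gene. The AP-1 motif TGANTCA was present in 8.64% of the 995 matched genes that were higher, 5.23% of the 650 that were lower, 4.40% of those in neither group and 7.81% of all 32851 promoters of the reference table. The C/EBP motif TTGCNNAA was present in 10.9% of the higher genes, 16.1% of the 168 genes at least 8-fold higher, 8.62% of the lower genes, 7.77% of those in neither group and 10.8% of all promoters. A motif of the interferon-stimulated response element, or ISRE (2 copies of GAAA separated by any 2 bases), was present in 5.33%, 3.08% and 2.81% of the higher, lower and other kept genes and in 3.44% of all promoters. The core of the xenobiotic response element, GCGTG, was present in 43.2%, 43.7% and 53.8% of the same 3 groups and in 32.4% of all promoters. An NF-kB motif (GGGA and CC separated by any 4 bases) was present in 27.7%, 25.2% and 26.5% (20.7% of all), the GAS motif TTCNNNGAA in 6.63%, 6.31% and 6.61% (8.30% of all) and the hypoxia response core ACGTG in 22.1%, 23.2% and 26.8% (19.6% of all). The groups differed in base composition, with a median GC content of 59.0% in the higher, 58.0% in the lower and 61.3% in the other kept genes, and a match is a description of letters and not of a bound site. The AP-1 and C/EBP motifs overlapped each other in 2 of the kept promoters.

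The windows of the 30 genes above that hold an AP-1 or a C/EBP match are shown because these are the motifs whose share was highest among the higher genes relative to the other kept genes, apart from the ISRE. The capitals mark the matches, on either strand. The first 4 genes were higher and the last 2 lower with 4T1-CM.
Inhba, chr13:16011601-16011900, plus strand: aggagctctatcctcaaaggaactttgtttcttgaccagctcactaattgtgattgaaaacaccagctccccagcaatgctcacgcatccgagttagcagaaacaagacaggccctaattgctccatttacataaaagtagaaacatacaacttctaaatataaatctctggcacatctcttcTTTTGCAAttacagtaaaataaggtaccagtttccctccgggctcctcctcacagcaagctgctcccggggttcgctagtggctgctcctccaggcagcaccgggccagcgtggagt
Olr1, chr6:129507116-129507415, minus strand: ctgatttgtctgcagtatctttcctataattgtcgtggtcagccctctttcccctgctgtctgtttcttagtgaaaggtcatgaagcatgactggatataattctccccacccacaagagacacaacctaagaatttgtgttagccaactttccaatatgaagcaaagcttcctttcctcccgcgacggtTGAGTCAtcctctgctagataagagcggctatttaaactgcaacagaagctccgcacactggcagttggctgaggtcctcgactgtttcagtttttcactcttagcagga
Serpinb2, chr1:107511173-107511472, plus strand: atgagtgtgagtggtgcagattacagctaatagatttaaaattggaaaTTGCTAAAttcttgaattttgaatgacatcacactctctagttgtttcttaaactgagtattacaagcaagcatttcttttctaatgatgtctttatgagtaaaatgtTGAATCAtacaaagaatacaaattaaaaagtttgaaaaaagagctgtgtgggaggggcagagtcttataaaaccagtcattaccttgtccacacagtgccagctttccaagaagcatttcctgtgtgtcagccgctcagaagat
Clec4e, chr6:123289822-123290121, minus strand: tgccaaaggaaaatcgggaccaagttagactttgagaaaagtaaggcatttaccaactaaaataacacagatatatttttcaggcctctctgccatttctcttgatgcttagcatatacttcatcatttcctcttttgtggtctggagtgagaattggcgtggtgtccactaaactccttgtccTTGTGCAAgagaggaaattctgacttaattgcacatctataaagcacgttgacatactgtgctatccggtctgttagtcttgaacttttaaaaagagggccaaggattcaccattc
Slamf8, chr1:172590519-172590818, minus strand: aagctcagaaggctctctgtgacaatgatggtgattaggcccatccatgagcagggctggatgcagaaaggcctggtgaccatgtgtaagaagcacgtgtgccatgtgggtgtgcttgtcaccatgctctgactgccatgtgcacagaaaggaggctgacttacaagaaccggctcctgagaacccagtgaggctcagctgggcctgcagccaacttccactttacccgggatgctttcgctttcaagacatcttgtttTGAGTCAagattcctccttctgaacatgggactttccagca
Tnfsf13, chr11:69685505-69685804, minus strand: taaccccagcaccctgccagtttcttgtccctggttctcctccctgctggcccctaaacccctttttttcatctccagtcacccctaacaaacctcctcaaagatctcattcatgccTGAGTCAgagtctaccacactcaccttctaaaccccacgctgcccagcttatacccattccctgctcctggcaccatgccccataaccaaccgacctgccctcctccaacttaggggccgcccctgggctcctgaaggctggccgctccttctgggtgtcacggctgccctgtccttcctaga

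The windows of *Inhba* (chromosome 13, plus strand) and *Clec4e* (chromosome 6, minus strand) each hold a C/EBP match before the start, at −67 to −60 and −66 to −59. *Olr1* (chromosome 6, minus strand) holds an AP-1 match at −60 to −54, and *Serpinb2* (chromosome 1, plus strand) holds both, with C/EBP at −202 to −195 and AP-1 at −94 to −88. Among the lower genes, *Slamf8* (chromosome 1, minus strand) holds an AP-1 match after the start, at 10 to 16, and *Tnfsf13* (chromosome 11, minus strand) at −133 to −127. The RefSeq start used for *Tnfsf13* lies 230 bases from the start of the deposited gene. For the other genes shown this distance was 0 or 1. The remaining matched windows among the 30 genes hold neither of these sets of letters. *Hp*, *Lox*, *Clmp*, *Cdkn1c* and *Rps29* had no entry.

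Secreted ligands differed by class. For comparison with the list counts below, 11.5% of all kept genes were higher and 7.71% lower. Among genes with at least 10 reads in both libraries, 869 of 12055 were higher and 739 lower. Of 13 CXC chemokines 8 were kept, 6 higher and 1 lower, with a median log2 ratio of 3.20. *Cxcl16*, a transmembrane chemokine, had 241 reads without and 7346 with 4T1-CM, 29.8-fold higher. *Cxcl1*, *Cxcl2* and *Pf4* had 8 and 208, 15 and 132, and 82 and 685 reads. *Cxcl14*, at 2817 and 2408, was little different, and 3 of the 6 higher members had at least 10 reads in both libraries. CC chemokines were less uniform, with 3 of 9 kept members higher, 1 lower and a median of 0.30. Of their 6 members with at least 10 reads in both libraries 1 was higher and 0 lower. *Ccl6* had 4963 and 10690 reads and *Ccl5* 9 and 106, while *Ccl2*, the monocyte chemoattractant, had 467 and 342.

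Of 15 inflammatory cytokines 11 were kept and 7 were higher, with a median of 2.05, and 3 of the 7 had at least 10 reads in both libraries. *Il1a* had 231 and 2190 reads, *Osm* (oncostatin M) 74 and 315, and *Il1rn*, the interleukin-1 receptor antagonist, 6981 and 12215. *Tnf* had 230 and 373 reads, a log2 ratio of 0.67. The growth factors were mixed, with 5 of 15 kept members higher, 1 lower and a median of −0.10. Of their 13 members with at least 10 reads in both libraries 3 were higher and 1 lower. *Vegfa*, the endothelial growth factor, had 508 and 6406 reads, 12.3-fold higher, and *Hgf* 286 and 711. *Tgfb1* had 4911 and 4059 reads, *Csf1* 235 and 142, and *Hbegf* 261 and 90, 2.95-fold lower.

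Receptors for chemoattractants and microbial products were the next group. 9 of 15 kept chemoattractant receptors were higher and 1 was lower. Of the 10 with at least 10 reads in both libraries 4 were higher and 1 lower. *Cxcr4* had 1434 and 4518 reads, 3.08-fold higher, and *Cmklr1*, the chemerin receptor, had 307 and 874. *Ptafr*, the receptor of platelet-activating factor, had 9247 and 2845, 3.32-fold lower. Among pattern recognition receptors 7 of 17 kept members were higher and 0 lower. *Cd14*, the lipopolysaccharide co-receptor, had 3808 and 55483 reads, 14.3-fold higher. *Clec4n*, *Tlr7* and *Nod2* were also higher, whereas *Tlr4* had 1138 and 1211 reads and *Nod1* 666 and 494. The scavenger receptors had 4 of 12 kept members higher and 1 lower. Of the 10 with at least 10 reads in both libraries 2 were higher and 1 lower. *Marco* had 0 and 50 reads, at least 16.3-fold higher, and *Cd36*, a receptor of oxidised lipids, had 69640 and 33907 reads, 2.10-fold lower.

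Colony-stimulating factor signalling was represented by its receptors and by STAT5 targets, of which 6 of 18 were higher and 2 lower. Of the 15 with at least 10 reads in both libraries 3 were higher and 2 lower. *Csf2rb*, the beta subunit of the GM-CSF receptor, and its close relative *Csf2rb2* had 12266 and 24397 reads and 6374 and 13408. The alpha subunit *Csf2ra* had 4587 and 3402 reads, a log2 ratio of −0.46. The feedback inhibitors *Socs3*, *Socs2* and *Cish* had 44 and 1385, 9 and 86, and 0 and 24 reads, with *Socs3* 30.5-fold higher and *Cish* at least 7.83-fold higher. *Bcl2l1*, encoding the survival protein Bcl-xL, had 3969 and 1556 reads, and *Ccnd1*, cyclin D1, 240 and 76. *Stat5a* and *Stat5b* themselves had log2 ratios of 0.01 and −0.03.

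All 16 NF-kB subunits and feedback genes were kept with positive ratios, and 8 were at least 2-fold higher and 0 lower, all 8 with at least 10 reads in both libraries. The inhibitors and targets led: *Nfkbiz* had 35 and 1081 reads, *Traf1* 45 and 423, *Bcl3* 76 and 572, and *Nfkbia*, the gene for IkB-alpha, 268 and 1258. The subunits *Rela*, *Nfkb1* and *Nfkb2* had log2 ratios of 0.32, 0.53 and 0.56, and *Relb* had 1.56. The AP-1 and immediate early factors had 5 of 22 higher and 3 lower, beside 11.5% and 7.71% of all kept genes, and a median of −0.02. *Ier3* had 36 and 611 reads, and *Fosl2* 671 and 2007. *Jun*, *Atf3* and *Egr2* were below 0, at −0.46, −0.76 and −1.39. The lineage factors *Spi1* (PU.1) and *Irf8* had log2 ratios of −0.54 and 0.12, and *Cebpb*, which encodes C/EBP-beta, had 1777 and 6208 reads, 3.42-fold higher.

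Genes of the AHR pathway differed in part. Of 16 partners and targets 10 were kept, 5 were higher and 0 lower, with a median of 0.98 with CH223191 and 0.98 with DMSO. *Ahr* itself had 21 and 167 reads, and *Cyp1a1*, its classical target, 0 and 0. *Tiparp*, an AHR target that encodes an ADP-ribosyltransferase, had 972 and 1332 reads, a log2 ratio of 0.42, against 882 and 1529 reads and 0.66 with DMSO. *Arnt*, the partner of AHR, had 807 and 1068 reads, and *Ahrr*, its repressor, 10 and 23.

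Interferon-stimulated genes were higher in 12 of 23 kept members with CH223191 and in 17 of the same 23 with DMSO, with medians of 1.01 and 1.77, and 0 were lower in either pair. *Irf7*, the master regulator of type I interferon responses, had 330 and 2132 reads with CH223191 and 225 and 2954 with DMSO. *Ifit1* had 42 and 109 reads with CH223191 and 9 and 206 with DMSO. The log2 ratio with CH223191 was below that with DMSO for 21 of the 23, and for 6683 of all 13281 kept genes. The summed level of the list in normal medium was 327 CPM with DMSO and 385 CPM with CH223191. In conditioned medium it was 1001 CPM with DMSO and 757 CPM with CH223191, so the libraries of both media differed. Whether the antagonist changed the response of these genes was not tested. Of 11 kept interferon-induced GTPases 6 were higher, 3 of them with at least 10 reads in both libraries, and the log2 ratio was below that with DMSO for 10. *Gbp2* had 193 and 499 reads against 200 and 626 with DMSO. Many of these GTPases are near-identical copies, and *Gbp6*, *Gbp10* and *Tgtp2* share 70.7%, 84.1% and 86.6% of their 50-base words with other genes.

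**Figure D3:**
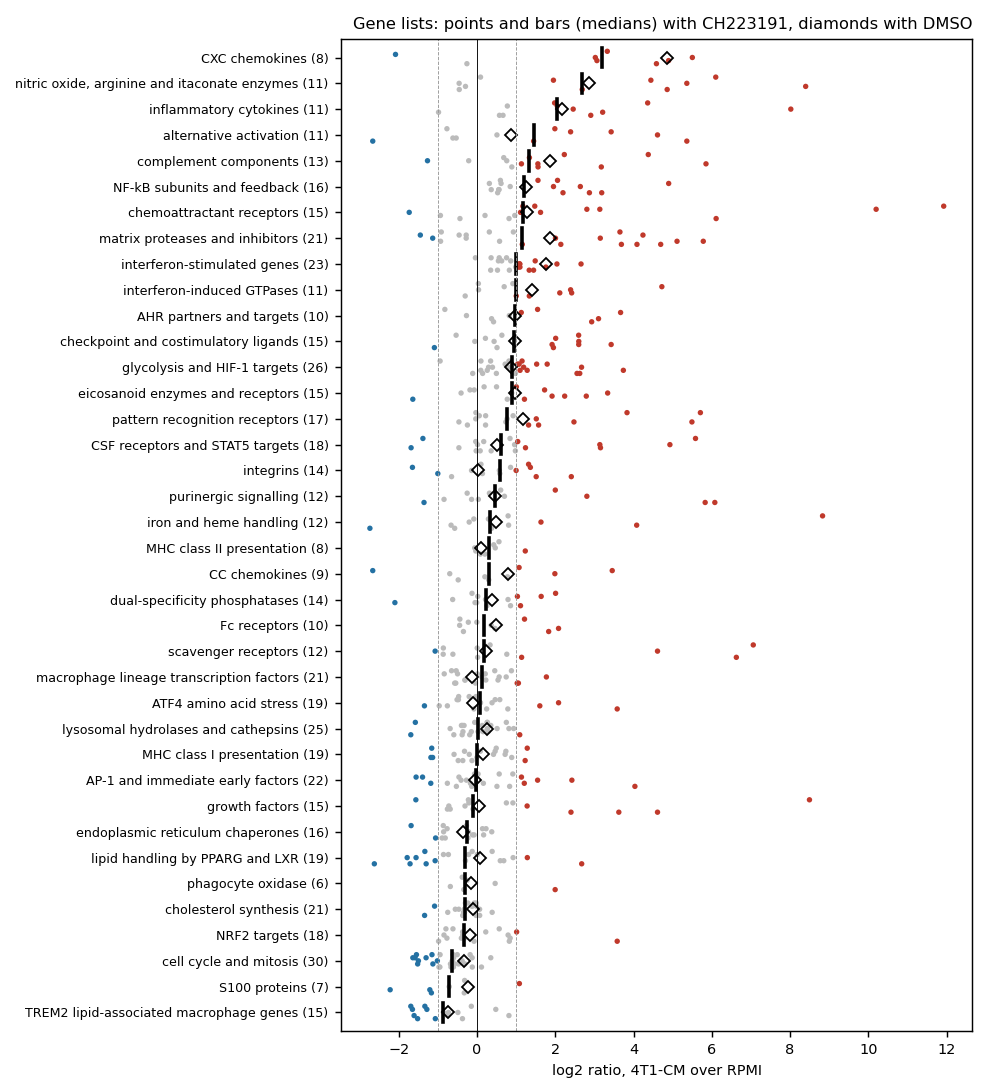
Log2 ratio of 4T1-CM over normal medium under CH223191 for each kept member of 38 gene lists, with the number kept in brackets. Points are genes (red at least 2-fold higher, blue at least 2-fold lower), bars are list medians and diamonds are the medians of the same genes with DMSO, with 1 library per condition. The CXC chemokines have the highest median at 3.20 and the TREM2 lipid-associated macrophage genes the lowest at −0.86.

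Arginine and itaconate metabolism stood among the highest medians, at 2.69, with 7 of 11 members higher and 0 lower. *Arg1*, arginase 1, had 936 and 39348 reads, 41.1-fold higher, and its mitochondrial relative *Arg2* had 101 and 2256, 21.8-fold higher. *Nos2*, the inducible nitric oxide synthase that uses the same substrate, had 1 and 44 reads. *Slc7a2*, a cationic amino acid transporter, had 1341 and 5309, and the superoxide dismutase *Sod2* 1050 and 6925. The remaining members, *Gch1*, *Odc1*, *Asl* and *Slc7a1*, lay between −0.46 and 0.09.

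Glycolysis and HIF-1 targets had 12 of 26 members higher and 0 lower, with a median of 0.90. *Hif1a*, the oxygen-regulated factor, had 1173 and 7051 reads, 5.88-fold higher. *Egln3* and *Bnip3*, which are HIF-1 targets, had 79 and 1085, and 502 and 3169 reads. *Slc2a1*, the glucose transporter GLUT1, had 2980 and 7409, *Slc16a3*, the lactate exporter MCT4, had 3042 and 8945, and *Pfkfb3* had 2567 and 9094. The core enzymes differed less, with *Pkm*, *Aldoa* and *Gpi1* at 0.10, −0.11 and 0.14. Of the hexokinases *Hk2*, at 1947 and 4093 reads, was higher, while *Hk3*, at 15684 and 8342, had a log2 ratio of −0.94. *Gapdh* is listed with 204 and 1331 reads, and 24.7% of its 50-base words occur in other genes.

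Lipid handling went the other way in most of its well-expressed members. Of 19 kept genes controlled by PPARG and LXR, 7 were lower and 2 higher. *Lpl*, lipoprotein lipase, had 83364 and 33842 reads, *Plin2*, the lipid droplet coat, 36146 and 15011, and *Fabp4* 2296 and 681, which is 2.52-, 2.46- and 3.44-fold lower. The receptors themselves were lower too, with *Pparg* at 824 and 257 reads and *Nr1h3* (LXR-alpha) at 1023 and 355. The 2 higher members were *Abca1*, the cholesterol exporter, with 6707 and 43783 reads, 6.39-fold higher, and *Mylip*, which degrades lipoprotein receptors, with a log2 ratio of 1.29. The cholesterol synthesis genes had 0 of 21 higher and 2 lower, beside 11.5% and 7.71% of all kept genes, and a median of −0.30.

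The genes known from TREM2 lipid-associated macrophages had the lowest median of the 38 lists, −0.86, with 0 of 15 higher and 7 lower. *Trem2* had 26843 and 9584 reads, 2.86-fold lower, its adaptor *Tyrobp* 17646 and 5919, and *Itgax* (CD11c) 39444 and 12849. *Lipa*, the lysosomal acid lipase, had 43786 and 13857 reads and *Lgals3* 139675 and 58753. *Spp1* (osteopontin), at 116341 and 165870, and *Ctsl*, at 199605 and 359158, were above 0. The lysosomal hydrolases and cathepsins stayed near 0, with a median of 0.03 over 25 genes and *Tfeb*, a regulator of lysosome genes, at 1389 and 476.

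Iron genes included the highest transcript per length in 4T1-CM. *Fth1*, the ferritin heavy chain, had 186084 and 590562 reads, 3.11-fold higher, which per kb of transcript and scaled for depth is an RPKM of 13511 and 41978. *Ftl1*, the light chain, had 130871 and 126407, with 50.9% of its 50-base words shared. *Slc40a1*, the iron exporter ferroportin, had 81 and 12 reads, a log2 ratio of −2.74, and *Hmox1*, haem oxygenase 1, had 10816 and 19179. After *Fth1*, the transcripts highest per length in 4T1-CM were *Lyz2* and *Psap*, and 5 of the first 10 were lysosomal cathepsins or *Psap*.

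Genes acting on the matrix and in coagulation included both directions. Of 21 kept proteases and inhibitors 11 were higher and 2 lower. *Thbs1* (thrombospondin 1) had 590 and 15619 reads, 25.9-fold higher, *Mmp14* 942 and 12429, and *Mmp9* 822 and 7463. *Mmp12*, the macrophage elastase, stayed abundant at 147853 and 110127 reads. *Plau*, urokinase, was 2.73-fold lower at 11213 and 4200 reads. Complement was mostly higher, in 8 of 13 kept components with 1 lower, and *C3*, the central component, had 167 and 3555 reads. Among eicosanoid genes 7 of 15 were higher: *Ptges*, the prostaglandin E synthase, had 137 and 1421 reads and *Ptgs2* (COX-2) 12 and 88, while *Hpgds*, the prostaglandin D synthase, was 3.12-fold lower at 2398 and 786.

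The list of checkpoint and costimulatory molecules, which holds both ligands and receptors, had 7 of 15 kept members higher and 1 lower. Of the 7 higher members, 5 had at least 10 reads in both libraries. *Havcr2* (TIM-3) had 259 and 1607 reads, *Cd86* 46 and 191 and *Cd40* 13 and 83. *Pdcd1lg2* (PD-L2) had 1 and 16 reads against 1 and 2 with DMSO. *Vsir* (VISTA) was 2.13-fold lower at 15135 and 7272. MHC class I presentation had 2 of 19 members higher and 3 lower, beside 11.5% and 7.71% of all kept genes. *H2-K1* had 2121 and 5087 reads, and the immunoproteasome subunit *Psmb10* had 921 and 422. Class II genes were at low levels, with *H2-Ab1* at 80 and 193 reads, 1 of 8 kept members higher and 0 lower.

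Cell cycle genes had 0 of 30 members higher and 9 lower, with a median of −0.63. *Pcna*, the replication clamp, had 6835 and 2442 reads, *Mcm5* 574 and 188, and *Tk1* 244 and 83. *Mki67*, at 730 and 686, and *Ccnb1*, at 257 and 241, had log2 ratios of −0.12. Endoplasmic reticulum chaperones had 0 of 16 higher and 2 lower, beside 11.5% and 7.71% of all kept genes. *Calr* had 23402 and 11487 reads and *Sdf2l1* 2085 and 663. NRF2 targets had 2 of 18 higher, near the share of all kept genes, and 0 lower. *Slc7a11*, the cystine transporter that ATF4 also controls, had 248 and 3042 reads, a log2 ratio of 3.58.

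Of 834 kept transcription factors assigned to a family by the deposited table, 82 were higher and 36 lower, both smaller shares than the 11.5% and 7.71% of all kept genes. *Runx3* had 33 and 254 reads, *Nfil3* 89 and 523, *Pou2f2* (Oct-2) 112 and 656 and *Creb5* 44 and 402. Among the lower factors *Hmga1* had 2992 and 1163 reads and *Hmga2* 119 and 32, so that all 3 kept members of the HMGI/HMGY class were lower. The zinc finger class (C2H2), with 35 of 405 higher and 5 lower, was also below those shares.

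The response with CH223191 was then set beside that with DMSO over the same 13281 genes, where 4T1-CM went with at least 2-fold more reads for 1471 genes (11.1%) and fewer for 751 (5.65%). Both pairs had 1032 higher genes in common, 67.5% of those with CH223191 and 70.2% of those with DMSO. They had 441 lower genes in common, 43.1% and 58.7%. Only 28 genes were higher with CH223191 and lower with DMSO, and 35 the reverse. The signed log2 ratio with CH223191 was at least 2-fold above that with DMSO for 573 genes (4.31%) and at least 2-fold below it for 697 (5.25%), whichever of the responses was the larger in size, and the counting interval of this difference lay beyond 2-fold for 42 and 95 genes. An effect of the antagonist and chance variation among unreplicated cultures cannot be told apart here.

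**Figure D4:**
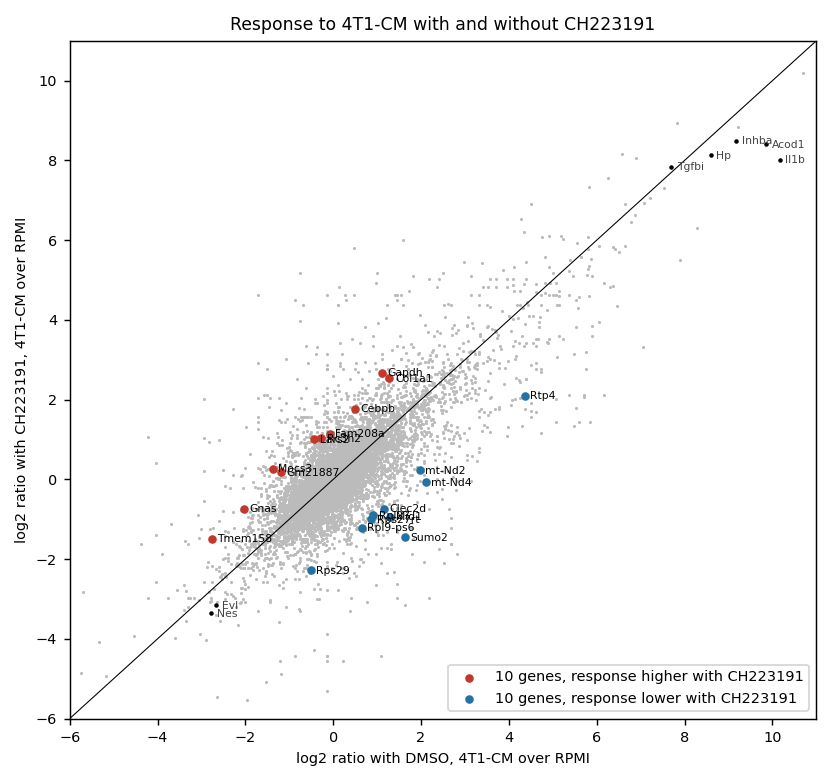
Log2 ratio of 4T1-CM over normal medium with DMSO (x axis) and with CH223191 (y axis) for the 13281 kept genes, 1 library per condition. Genes beyond the axis limits are not drawn, among them *Fpr2*, at 11.9 with CH223191, and *Slco2b1*, at −7.48 with DMSO. Coloured points are the 10 genes with the largest positive (red) and negative (blue) difference between the responses, black points are genes named earlier, and the line marks equal responses. *Sumo2* lies below 0 with CH223191 and above 0 with DMSO, while *Cebpb* and *Col1a1* lie above the line.

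The 10 genes whose ratio lay furthest above that with DMSO included *Cebpb*, at 1.77 against 0.50 on the log2 scale. Its reads with CH223191 were 1777 without and 6208 with 4T1-CM, and with DMSO 3639 and 5653, so that the normal medium libraries differed more than those in 4T1-CM. *Col1a1*, a fibroblast collagen, had 118 and 704 reads against 359 and 958 with DMSO, with the same arrangement. *Lars2*, a mitochondrial leucyl-tRNA synthetase, had 1150 and 2362 reads against 1847 and 1500. *Rc3h2*, *Fam208a*, *Mocs3*, *Gnas*, *Tmem158*, *Gapdh* and *Gm21887* completed the 10, and for *Gnas* and *Tmem158* the ratio was negative in both pairs and nearer to 0 with CH223191. *Mocs3* and *Gm21887* had ratios of 0.26 and 0.19 with CH223191 and −1.38 and −1.20 with DMSO. *Gm21887* shares 59.7% of its 50-base words.

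The 10 genes whose ratio lay furthest below that with DMSO were led by *Sumo2*, encoding a ubiquitin-like modifier. It had 273 and 102 reads with CH223191 and 140 and 477 with DMSO, a difference of −3.08 with a counting interval from −3.50 to −2.65. *Rtp4*, an interferon-induced gene, had 79 and 348 reads against 30 and 690. *Clec2d*, a ligand of a lymphocyte receptor, had 1096 and 670 reads against 255 and 622. *Mid1* had 256 and 136 against 111 and 301. *Rps29*, *Rpl27*, *Rps27rt* and *Rpl9-ps6* carry ribosomal protein sequence, and *mt-Nd4* and *mt-Nd2* lie on the mitochondrial chromosome. *Rps29* was negative in both pairs, at −2.28 with CH223191 and −0.51 with DMSO. *Rps27rt* and *Rpl9-ps6* share 91.1% and 89.2% of their 50-base words with other genes, *mt-Nd4* 62.2%, *Rpl27* 23.5% and *Sumo2* 19.2%.

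Short genes were lower with 4T1-CM under CH223191 as a class. Among genes with at least 50 reads, the 187 of up to 500 bases had a median log2 ratio of −0.39 with CH223191 and −0.04 with DMSO, and 25.1% and 13.9% of them were at least 2-fold lower. The 4723 genes over 5000 bases had medians of 0.14 and 0.05, with 2.84% and 2.63% lower. In between, genes of 500 to 1000 bases had medians of −0.42 and −0.14, and those of 1000 to 2000 bases −0.32 and −0.15. Spearman's rho between gene length and log2 ratio was 0.27 with CH223191 and 0.13 with DMSO across 11356 genes, which share the same libraries and are not independent. Of the normal medium libraries, the 187 shortest genes were 0.42 higher (median log2) with CH223191 than with DMSO.

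**Figure D5:**
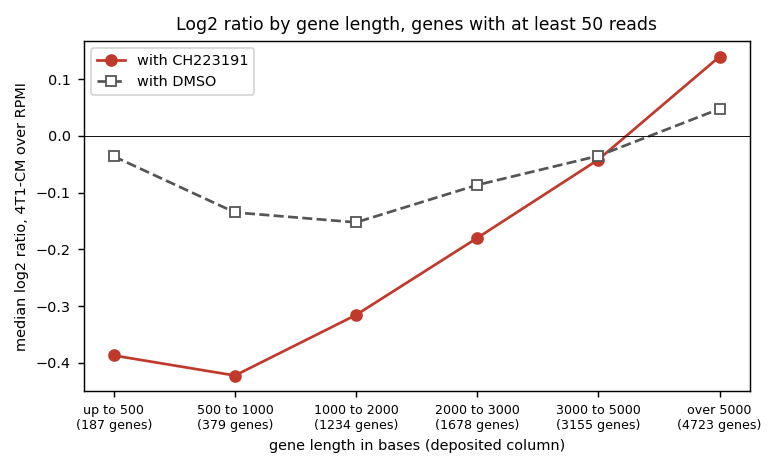
Median log2 ratio of 4T1-CM over normal medium by gene length, for genes with at least 50 reads, with CH223191 (filled) and with DMSO (open), 1 library per condition. The median with CH223191 is lowest, at −0.42, in genes of 500 to 1000 bases and highest, at 0.14, in those over 5000, and with DMSO it is lowest, at −0.15, in genes of 1000 to 2000 bases and highest, at 0.05, in those over 5000.

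Families with many short genes were also lower. Of 79 kept cytosolic ribosomal proteins, 29 were lower and 1 higher, with a median of −0.77 with CH223191 and −0.19 with DMSO. *Rps28* had 3766 and 931 reads with CH223191 and 1146 and 748 with DMSO, and *Rps29* had 10114 and 2128 against 2817 and 2167. In both genes the library with normal medium and CH223191 stood above the other 3. Of 78 kept nuclear-encoded subunits of the respiratory chain, 16 were lower and 1 higher, with medians of −0.61 and −0.27. *Atp5k*, of the ATP synthase, had 1082 and 223 reads against 438 and 167. When the trend on gene length was removed from the ratios, an alternative chosen after seeing the data, 859 of all kept genes (6.47%) were at least 2-fold lower, among them 15 ribosomal proteins and 10 respiratory chain subunits. The medians of these 2 families with CH223191 were then −0.64 and −0.47. The part of RNA quality or library preparation in this was not tested.

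The mitochondrial chromosome behaved differently between the pairs. It took 1.17% and 1.79% of the reads in normal medium and 4T1-CM with CH223191, and 0.633% and 1.76% with DMSO. Of 12 kept genes 2 were higher and 0 lower with CH223191, with a median of 0.34, and 10 were higher with DMSO, with a median of 1.46. *mt-Nd4*, a subunit of complex I, had 10401 and 10137 reads with CH223191 and 2312 and 10971 with DMSO. *mt-Co1* had 86248 and 148502 reads against 51836 and 144620. In both genes the normal medium library with DMSO was the lowest of the 4, and they share 62.2% and 51.1% of their 50-base words with other genes.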

How the data were processed

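RNA-seq of cultured peritoneal macrophages was analysed, with 1 library for each of 4 conditions. The authors deposited raw read counts per gene. Per the labels, RNA was taken with TRIzol and libraries were made with a NEBNext Ultra kit, and the submitters' processing notes name HISAT2 2.0.5 and DESeq2. The study's methods name FeatureCounts for libraries of alveolar macrophages. For the libraries used here the counting tool, its strand setting and the genome build are not given in the sources used here. Without a known strand setting, overlapping and antisense genes cannot be told apart. The deposited gene positions were the same as GENCODE M21 (GRCm38) for 98.3% of identifiers.

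Counts were scaled by TMM (edgeR 4.0.16) over 4 libraries. Genes with at least 10 reads in either CH223191 library were kept. Log2 ratios were computed on counts plus 0.5 reads, with 95% exact Clopper-Pearson intervals for the split of reads. Reads without molecular identifiers are not independent molecules, so intervals and floors cover counting error only. A gene at 0 was given a bound from a floor of 3 reads per library, which was 0.189 and 0.185 CPM in the 2 CH223191 libraries. Gene-level ratios were also computed on simulated counts with an assumed spread and with changes placed only in the better-covered genes. This cannot show how replicate cultures vary, nor how ratios at few reads behave. Named genes were protein-coding, with a mean of at least 10 CPM and at least 4 reads in each library: the 15 highest and the 15 lowest ratios, the 10 largest differences between the responses in each direction, members of the gene lists, and the 10 transcripts with the most reads per kb in 4T1-CM. Transcription factors are examples from the deposited family column, chosen after their values were seen. The members, lists and rules were chosen with earlier results of these data known. An additive edgeR quasi-likelihood fit with Benjamini-Hochberg adjustment (medium plus inhibitor, 1 residual degree of freedom), DESeq2 1.42.0 size factors, other prior counts and other filters were alternatives. Shared sequence was measured as the percent of a gene's 50-base words found in another gene. Promoters are from RefSeq. Python 3.11.15, R 4.3.3 and statsmodels 0.14.6 were used. Some members of the gene lists are not reported here by name.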

Additional observations from a re-analysis of the deposited data

Results flagged for a closer look

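*Sumo2* differed in direction between the 2 inhibitor states. Its log2 ratio of 4T1-CM over normal medium was −1.45 with CH223191 and 1.63 with DMSO, with 1 library per condition. The difference was not tested, since there are no replicate libraries.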

How the results depend on the processing

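No paired analysis was possible because each condition has 1 library, so leaving out a replicate was not possible either. The counts were 1529 higher genes, 1024 lower genes, 10 gene lists with a median of at least 2-fold, and 1270 genes whose responses differed at least 2-fold between the inhibitor states. DESeq2 size factors gave 1504, 1040, 8 and 1276, and scaling by total counts 1549, 1008, 10 and 1253. With a prior count of 5 the responses differed at least 2-fold for 799 genes. With no filter the counts were 4420 higher, 2946 lower and 6027 differing in response. With at least 10 reads in both libraries they were 869 higher, 739 lower, 6 lists and 633 differing in response. Among protein-coding genes alone 780 differed in response. Removing the trend on gene length, an alternative chosen after seeing the data, gave 1599 higher genes and 859 lower genes (6.47%). The additive edgeR fit assumes the same medium effect in both inhibitor states and has 1 residual degree of freedom. Of 13715 genes it called 2248 higher and 2228 lower at an adjusted p under 0.05 with no fold limit. With a fold of at least 2 required as well, it called 1087 higher and 566 lower. Reversal was looked for in the named genes and in lists with a median of at least 2-fold, and 0 reversed. Medians nearer 0 could change sign. With the length trend removed, AP-1 and immediate early factors went from −0.02 to 0.13, and MHC class I presentation from −0.001 to 0.07. The list medians and named genes were compared under each setting in turn, and 50 of these 466 comparisons moved by more than a counting interval. They were 30 of 88 with the length trend removed and 1 of 88 with a prior count of 5. Of 38 list medians, 12 moved with at least 10 reads in both libraries and 7 with no filter. The other scalings and protein-coding genes alone moved 0. For a list the interval was that of its middle member. Depth limits the genes with few reads in normal medium, whose ratios have wide intervals.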

Other observations

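Further gene families, chosen after their values were seen, are given as values under CH223191. Of 24 kept collagens 14 were higher with 4T1-CM and 3 lower, 7 of the higher ones with at least 10 reads in both libraries, and the median log2 ratio was 1.54 with CH223191 and 1.03 with DMSO. Of 7 kept members of the MS4A family of membrane proteins 5 were higher and 0 lower. *Ms4a7* had 364 reads without and 1998 with 4T1-CM, and *Ms4a6d* had 2060 and 5364. The CD300 family of lipid-binding receptors was split, with 3 of 10 higher and 5 lower. *Cd300lf* had 1264 and 6792 reads, whereas *Cd300a* had 6436 and 1465 and *Cd300lb* 8253 and 3015.

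Of 11 kept semaphorins 6 were higher and 0 lower, 2 of the 6 with at least 10 reads in both libraries. *Sema4a* had 426 and 1256 reads and *Sema4d* 4684 and 2428, a log2 ratio of −0.98. Of 7 kept Schlafen genes 4 were higher, and *Slfn2* had 1553 and 4852 reads. Of 217 kept solute carriers 31 were higher and 17 lower, near the 11.5% and 7.71% of all kept genes. *Slc36a2*, an amino acid transporter, had 19 and 414 reads, *Slc6a12* had 18 and 248, and *Slco2b1*, an organic anion transporter, had 139 and 5.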
